A study of Mus musculus with 24 samples.

Results

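Inner retinal neuron genes are genes that mark the nerve cells lying between the photoreceptors and the optic nerve, and 34 of them were followed here in RNA of the mouse choroid. The choroid is the vascular layer behind the retina, and the study's methods use the name for all that is left after the retina is lifted off, which includes the retinal pigment epithelium and the sclera. They comprised 12 genes of bipolar cells, 4 of horizontal cells, 9 of amacrine cells and 9 of ganglion cells. The rule that picked them uses the symbol and the cell it marks, with no measured value in it, although earlier results of these data were known when the list was drawn up. Each matched 1 of the 56065 gene identifiers of the deposited table. Of the 34 genes, 33 averaged 10 or more normalized counts across the 24 libraries and were tested. The exception was Pou4f3, which was above 0 in 16 of 24 libraries.

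Choroidal RNA was sequenced in 24 libraries of wild type and Ceacam1-/- mice, with and without laser treatment. The wild type mice without laser gave libraries 21, 22, 26 and 27, and the Ceacam1-/- mice without laser gave libraries 23, 24, 25 and 28. After laser, 9 libraries came from wild type mice (1, 2, 3, 11, 12, 13, 16, 17 and 19) and 7 from Ceacam1-/- mice (4, 5, 6, 7, 14, 15 and 18). The Ceacam1-/- mice lack exons 1 and 2 of Ceacam1, which codes for a cell adhesion molecule, and were littermates of the wild type mice from matings of heterozygous parents on a C57BL/6J background. Laser treatment placed 6 spots per eye (150 mW, 200 μm, 100 ms) to induce choroidal neovascularization, the growth of new vessels from the choroid, in mice anaesthetized with ketamine and xylazine and with dilated pupils. The labels give neither the age and sex of the mouse behind a library nor the time between laser and tissue collection, and they do not say which libraries came from separate mice, so p-values measure only the spread between these libraries. Values were normalized counts, that is, estimated reads of a gene corrected for how deeply the library was sequenced and for transcript length. They summed to between 23704346 and 35094410 per library (median 25708886), and between 25021 and 27964 genes per library were above 0.

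Ceacam1, the deleted gene (ENSMUSG00000074272, chromosome 7, 25161128 to 25177257, GRCm39), had 958, 5027, 1242 and 4596 normalized counts in wild type libraries 21, 22, 26 and 27, and 405, 505, 508 and 1171 in Ceacam1-/- libraries 23, 24, 25 and 28. After laser it lay between 774 and 8367 (median 996) in wild type and between 67.8 and 905 (median 335) in Ceacam1-/- libraries. The Ceacam1-/- libraries thus lay lower but kept reads of the gene, and library 28 without laser and library 15 after laser reached into the wild type range. The table gives 1 value for the whole gene, so reads of the deleted exons could not be looked at alone.

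Such tissue holds pigment epithelium, vessels, pigment cells and connective tissue, and the retinal neurons lie in the part taken away. A list of 18 photoreceptor genes was nevertheless above 0 in the series, with no gene at 0 in all libraries. The summed photoreceptor list was lowest in Ceacam1-/- library 25 with 7827 normalized counts, 0.0223% of that library, and highest in Ceacam1-/- laser library 18 with 1103111, or 4.53%. It held over 2% of the values in 5 libraries, which were wild type library 21 (2.44%), Ceacam1-/- library 23 (2.66%) and Ceacam1-/- laser libraries 15, 14 and 18 (2.32%, 4.39% and 4.53%). The mean log2 level of this list is called the photoreceptor level below. In whole tissue, fewer cells of a type and less RNA per cell cannot be told apart.

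In the retina, photoreceptors pass their signal to bipolar cells, which pass it to ganglion cells, whose axons form the optic nerve. Horizontal cells act on this path at its first synapse and amacrine cells at its second, mostly with the inhibitory transmitters GABA and glycine. Bipolar cells that respond to light onset (ON bipolar cells) sense glutamate through the receptor Grm6, which controls the channel Trpm1 by way of a G protein. Several of the marker genes are also used outside the retina: Th in sympathetic nerves, Trpm1 in pigment cells, Pax6 in the surface epithelium of the eye, and Thy1 and Rbpms in cells of connective tissue and vessel walls.

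The 200 bases before the start of the canonical transcript are shown for Cabp5, the gene with the highest Pearson correlation with the photoreceptor level, and for Th, the only gene of the 34 that passed the test in any comparison; both were picked after their values were seen. Sequences are from GRCm39, are written 5′ to 3′ on the strand of the gene and end at the base before the transcript start. Capitals in Cabp5 mark TAATCC, the motif bound by the photoreceptor and bipolar cell factors Crx and Otx2, and capitals in Th mark TGACGTCA, the cAMP response element. The Cabp5 sequence is chr7:13131857-13132056 on the plus strand and the Th sequence is chr7:142453752-142453951 on the minus strand.
Cabp5: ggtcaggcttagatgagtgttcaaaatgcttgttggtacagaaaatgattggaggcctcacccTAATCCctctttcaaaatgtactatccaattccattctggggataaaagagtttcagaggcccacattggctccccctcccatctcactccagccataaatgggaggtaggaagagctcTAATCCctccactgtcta
Th: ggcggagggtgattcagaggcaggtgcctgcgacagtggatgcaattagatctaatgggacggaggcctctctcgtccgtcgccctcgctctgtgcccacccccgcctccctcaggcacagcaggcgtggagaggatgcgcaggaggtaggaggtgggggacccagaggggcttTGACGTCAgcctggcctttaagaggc

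Motifs were searched on both strands of the same window. TAATCC (reverse complement GGATTA) was found in the promoters of 2 of the 34 genes, Cabp5 and Isl1, which is 5.88%, beside 5.45% of the promoters of 21586 protein-coding genes. Cabp5 holds it at bases 137 to 132 and 18 to 13 before the start. TGACGTCA, which is its own reverse complement, was found for Pax6 and Th (5.88% of the 34, 1.60% of all promoters), and in Th it lies 26 to 19 bases before the start. CATGTG (reverse complement CACATG), the letters of an E-box, was found for Pcp2, Grik1 and Tfap2b (8.82% of the 34, 8.01% of all). These matches describe letters only.

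All 34 genes were above 0 in at least some libraries, and most ranged over several powers of 2. The ratio of the highest to the lowest library, on the scale of log2(normalized count + 1), had a median over the 34 genes of 6.74. It was above 4 for 26 genes and below 2 for 2 genes. Per kilobase of transcript and as a median of wild type libraries without laser, Slc6a9 (993 normalized counts per kb), Pcp2 (897), Rbpms (592) and Nefl (588) were highest, and Onecut1 (1.6), Pou4f3 (1.5) and Onecut2 (1.3) were lowest. The order among neighbours is loose, because Pcp2 ranged from 15.2 to 1262 normalized counts within those 4 libraries. The map of the genes by library shows the same few columns bright across the genes of all 4 cell classes.

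**Figure D1:**
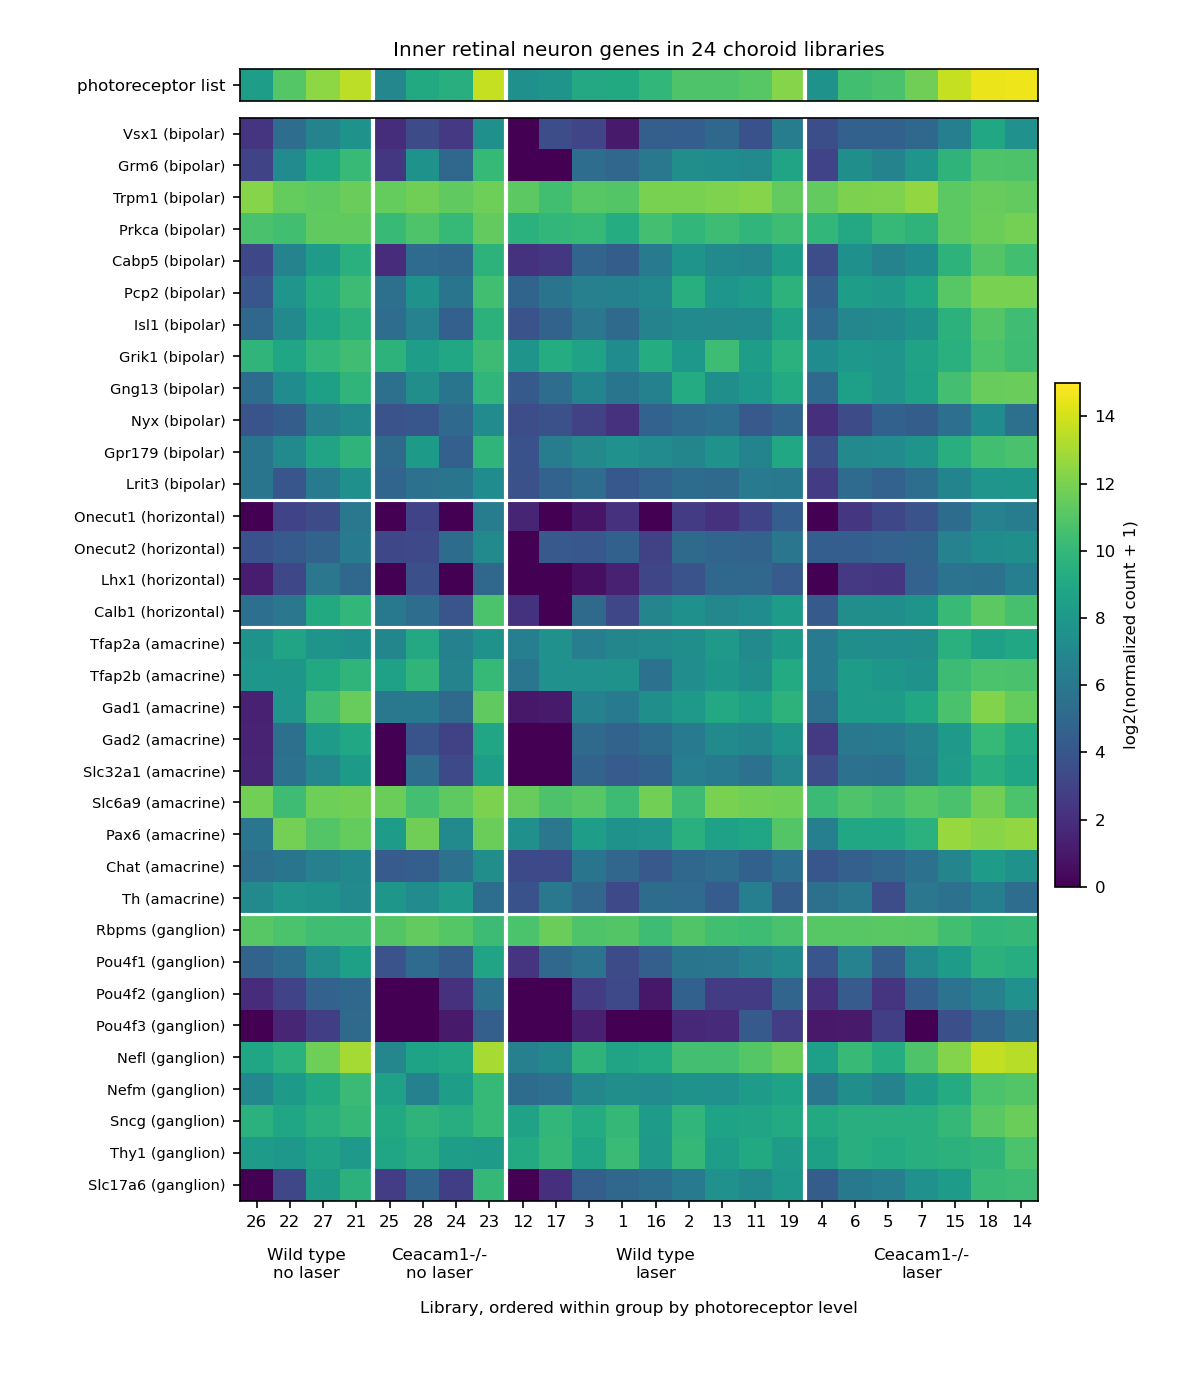
Heat map of log2(normalized count + 1) of the 34 genes (rows, with their cell class) in 24 libraries (columns, grouped by genotype and laser and ordered within a group by the photoreceptor level shown in the top strip). Most rows brighten from left to right within each group, while Trpm1, Slc6a9, Rbpms, Thy1 and Th do not do so in every group.

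The same libraries were high for most genes. Library 18 was among the 5 highest for 31 of the 34 genes, library 14 for 30, libraries 21 and 23 for 27 each and library 15 for 23. These are the 5 libraries with the highest photoreceptor level, and they come from 3 of the 4 groups. At the other end, library 12 was among the 5 lowest for 30 genes, library 4 for 21, library 17 for 19 and library 25 for 18, and these 4 had the lowest photoreceptor levels. In library 12, a wild type laser library, 25 of the 34 genes were above 0.

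Among the bipolar cell genes, Grm6, the glutamate receptor of ON bipolar cells, had 1084, 148, 7.29 and 517 normalized counts in wild type libraries 21, 22, 26 and 27 and 1077, 31.6, 4.37 and 198 in Ceacam1-/- libraries 23, 24, 25 and 28. After laser it had a lowest, median and highest value of 0, 62.2 and 428 in wild type and of 6.95, 227 and 1849 in Ceacam1-/- libraries. Each group therefore held libraries nearly without Grm6 beside libraries rich in it, and the 4 groups overlapped. Cabp5, a calcium-binding protein of rod bipolar and some cone bipolar cells, ranged from 8.43 to 745 in wild type and from 2.79 to 827 in Ceacam1-/- libraries without laser, and from 3.53 to 339 and from 10.6 to 2012 after laser. Pcp2 and Gng13, the latter a G protein subunit of the Grm6 pathway, behaved alike, with 15.2 to 4058 and 18.1 to 3042 normalized counts over all libraries. The transcription factors Vsx1 and Isl1 and the Grm6 pathway proteins Nyx, Gpr179 and Lrit3 were also highest in library 14 or 18.

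Trpm1, the channel at the end of that pathway, was the bipolar cell gene with the highest mean and, over all 24 libraries, did not vary with the others. It had 3106, 2766, 4980 and 2517 normalized counts in wild type libraries 21, 22, 26 and 27 and 3351, 2599, 2836 and 3441 in Ceacam1-/- libraries 23, 24, 25 and 28. After laser its lowest, median and highest values were 1412, 2642 and 5044 in wild type and 2408, 2954 and 6124 in Ceacam1-/- libraries. Library 26, where Grm6 was lowest among the wild type libraries without laser, had the highest Trpm1 of that group. Prkca, a kinase of rod bipolar cells that many other cells also express, and the kainate receptor gene Grik1 lay between these patterns, with log2 ranges of 2.78 and 3.45 over all libraries.

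The horizontal cell genes were low apart from Calb1, a calcium buffer. Calb1 had 966, 60.2, 44.1 and 545 normalized counts in wild type libraries 21, 22, 26 and 27 and 1735, 14.47, 65.4 and 40.1 in Ceacam1-/- libraries 23, 24, 25 and 28. After laser its lowest, median and highest values were 0, 114 and 304 in wild type and 17.7, 216 and 2406 in Ceacam1-/- libraries. Libraries 14, 15 and 18 lay above every wild type laser library, and the other 4 Ceacam1-/- laser libraries lay within their range. The transcription factors Onecut1, Onecut2 and Lhx1 reached 101, 178 and 87.7 normalized counts at most, and each was at 0 in at least 1 library.

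Of the amacrine cell genes, those of GABA synthesis and storage ranged most. Gad1, which makes GABA, had 2944, 225, 1.62 and 1335 normalized counts in wild type libraries 21, 22, 26 and 27 and 2550, 35.3, 63.1 and 65.9 in Ceacam1-/- libraries 23, 24, 25 and 28. After laser its lowest, median and highest values were 0.929, 173 and 846 in wild type and 46.3, 485 and 4546 in Ceacam1-/- libraries. A single library held most of the Gad1 of the Ceacam1-/- mice without laser. Gad2, the second GABA-making enzyme, and Slc32a1, which loads GABA and glycine into vesicles, ranged from 0 to 1074 and from 0 to 703. Chat, the acetylcholine-making enzyme of starburst amacrine cells, ranged from 8.90 to 305.

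Slc6a9, a glycine transporter, had the highest mean of the amacrine cell genes and varied little. It had 3593, 1304, 3562 and 3345 normalized counts in wild type libraries 21, 22, 26 and 27 and 4190, 2478, 3158 and 1438 in Ceacam1-/- libraries 23, 24, 25 and 28. After laser its lowest, median and highest values were 1238, 2957 and 4115 in wild type and 1202, 1743 and 3629 in Ceacam1-/- libraries. All 4 groups overlapped widely. Pax6, a transcription factor of amacrine cells and of surface epithelium, ranged from 58.8 in library 26 to 6659 in library 15. Libraries 22 and 28 had 3785 and 3456 normalized counts of Pax6 although they ranked only 10 and 17 by photoreceptor level. They and library 15 had the highest summed level of their group in a list of 8 surface epithelium genes, led by the keratin Krt15, with 414695, 549179 and 562490 normalized counts, and its part in the Pax6 values was not tested.

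Among the ganglion cell genes, Nefl, the light neurofilament subunit, had the highest mean. It had 8067, 755, 471 and 3272 normalized counts in wild type libraries 21, 22, 26 and 27 and 8507, 482, 124 and 419 in Ceacam1-/- libraries 23, 24, 25 and 28. After laser its lowest, median and highest values were 93.5, 855 and 3140 in wild type and 351, 1858 and 12509 in Ceacam1-/- libraries. Libraries 21 and 23 without laser and laser libraries 14, 15 and 18 stood above the rest. Nefl and Nefm lie on opposite strands of chromosome 14 and their annotated spans overlap from 68321268 to 68326544, so reads of the shared stretch cannot be told apart without strand.

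Pou4f2, a transcription factor of ganglion cells, was low everywhere. It had 31.8, 7.25, 2.73 and 24.8 normalized counts in wild type libraries 21, 22, 26 and 27 and 47.4, 3.42, 0 and 0 in Ceacam1-/- libraries 23, 24, 25 and 28. After laser its lowest, median and highest values were 0, 5.26 and 28.4 in wild type and 3.03, 20.99 and 192 in Ceacam1-/- libraries. Its relatives Pou4f1 and Pou4f3 reached 797 and 54.1. Slc17a6, the glutamate transporter of ganglion cell synapses, ranged from 0 to 1245.

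Thy1, a surface glycoprotein, and Rbpms, an RNA-binding protein, followed another pattern. Thy1 had 268, 257, 301 and 392 normalized counts in wild type libraries 21, 22, 26 and 27 and 313, 345, 452 and 651 in Ceacam1-/- libraries 23, 24, 25 and 28, and its lowest, median and highest values after laser were 266, 557 and 1181 in wild type and 374, 699 and 1698 in Ceacam1-/- libraries. Rbpms stayed between 980 (library 18) and 3170 (library 17), so its lowest value fell in a library that was highest for most other genes.

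How closely each gene varied with the photoreceptor level was measured over the 24 libraries, which include all 4 groups. Of the 33 genes tested, 28 were positively correlated and 1 negatively (Pearson's r and Spearman's rank coefficient rs, permutation tests, Benjamini-Hochberg over 132 pairs of a gene with 1 of 4 lists of other cell types). The rank coefficient rs was above 0.8 for 21 genes, and its median over the 33 genes was 0.85. It was 0.96 for Cabp5 (r = 0.98), 0.97 for Gad2 (r = 0.95), 0.96 for Nefl (r = 0.97) and 0.90 for Calb1 (r = 0.89), each with the smallest p that 100000 permutations can give, 1e-05. These are 4 genes with high coefficients, 1 from each cell class. The genes with the highest mean among bipolar and amacrine cell genes, Trpm1 and Slc6a9, were not among those correlated. The members and the photoreceptor list share each library's tissue and its normalization, so the correlation describes the libraries and not a link between genes.

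For these 4 genes the relation did not rest on the extremes. Over all 33, r was above 0.8 for 23 genes, and for 16 of these also within the wild type laser and within the Ceacam1-/- laser libraries. Without libraries 14 and 25, the 2 farthest from the median photoreceptor level, r was 0.98 for Cabp5, 0.94 for Gad2, 0.96 for Nefl and 0.93 for Calb1. Within the 9 wild type laser libraries alone, r was 0.98, 0.93, 0.96 and 0.92 (exact permutation tests, p = 5.2e-05, 3.9e-05, 7.4e-05 and 0.000138). In the same 9 libraries r was lower for Tfap2b (0.55), Prkca (0.53) and Grik1 (0.39). The Ceacam1-/- laser libraries fell into a set of 3 with high and a set of 4 with lower photoreceptor levels. The count of 16 genes rests in part on this split, and a coefficient within these libraries is printed below for Thy1 alone.

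**Figure D2:**
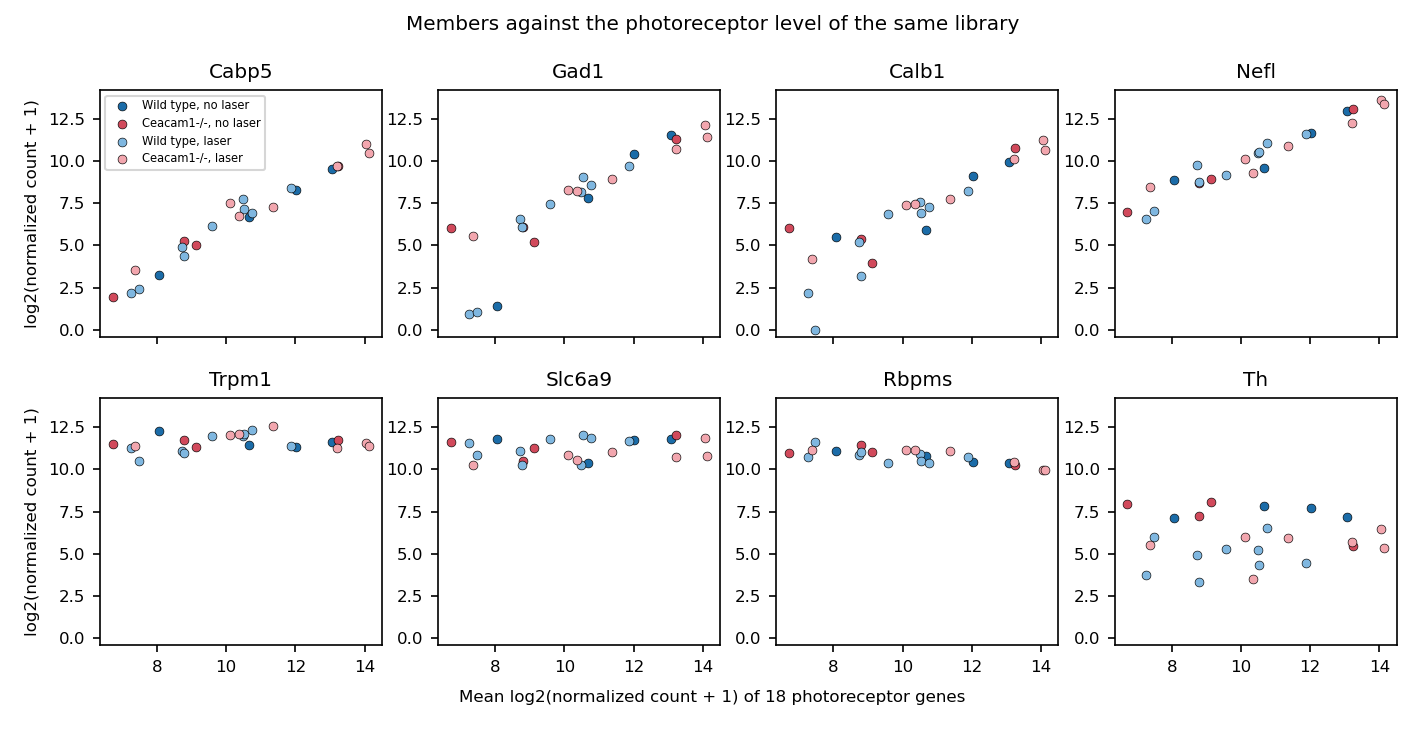
Log2(normalized count + 1) of 8 genes against the mean log2 level of 18 photoreceptor genes, 1 point per library, coloured by group. Over all libraries Cabp5, Gad1, Calb1 and Nefl rise along the axis, Trpm1, Slc6a9 and Th show no clear trend and Rbpms declines, while in the Ceacam1-/- group without laser Calb1 and Gad1 are high in library 23 alone.

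Over all 24 libraries, the genes that did not follow the photoreceptor level were Th (rs = 0.04), Thy1 (0.05), Trpm1 (0.16) and Slc6a9 (0.31), with permutation p-values adjusted over the 132 pairs of 0.925, 0.893, 0.587 and 0.220. For Thy1, rs was 0.96 within the Ceacam1-/- laser libraries, which fall into sets of high and lower photoreceptor level. It was -0.42 within the wild type laser libraries (exact permutation p = 0.0028 and 0.270). Rbpms was lower where the photoreceptor level was high (rs = -0.68, r = -0.75, adjusted permutation p = 0.00176 for rs). Trpm1 was correlated with a list of 8 pigment cell genes led by Dct, with r = 0.50 and rs = 0.67 over 24 libraries (adjusted permutation p = 0.0220 and 0.00192), r = 0.72 without libraries 14 and 18, and r = 0.96 within the wild type laser libraries (exact permutation p = 0.00014). In those 9 libraries Trpm1 also had r = 0.67 and rs = 0.70 with the photoreceptor level (exact permutation p = 0.0521 and 0.0432). Slc6a9 had r = 0.40 and rs = 0.55 with a list of 8 genes of the retinal pigment epithelium, the pigmented layer between retina and choroid (adjusted permutation p = 0.0769 and 0.0181 over 132 pairs added after the values were seen), so only rs passed the threshold, and r was 0.86 within the wild type laser libraries. Rbpms had r = 0.77 and rs = 0.62 with 8 endothelial genes (adjusted permutation p = 0.00022 and 0.0106, among the added pairs). Sncg (rs = 0.49), Grik1 (0.57), Prkca (0.61), Tfap2a (0.66) and Tfap2b (0.67) followed the photoreceptor level less closely and passed the threshold, and Sncg had r = -0.16 within the wild type laser libraries.

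To see which genes had the most similar pattern, all 19950 genes tested were compared with Pcp2, the gene with the highest mean among Grm6, Pcp2, Cabp5, Vsx1 and Gng13. The closest by Spearman's rs over the 24 libraries were Gng13 (0.988), itself among the 34, the G protein subunit Gnb3 (0.987), Thoc5 (0.984), the calcium sensor Scgn (0.982), Gm48551 (0.981), the photoreceptor gene Tulp1 (0.980), Gm47543 (0.980), Pacsin1, Gm4792 and Zfp593os (0.978 each). The list holds bipolar cell and photoreceptor genes side by side.

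The laser comparison in wild type mice asks which genes changed after choroidal injury. In limma across 19950 genes, 1 of the 33 inner retinal genes passed an adjusted p of 0.05, beside 5.28% of all genes tested (1.05% lower after laser). At an unadjusted p under 0.05 there were 4 of 33, beside 20.0% of all genes. The gene was Th, tyrosine hydroxylase, the rate-limiting enzyme of dopamine and noradrenaline synthesis, and it was lower after laser. Th (ENSMUSG00000000214, chromosome 7, 142443466 to 142484865, GRCm39, minus strand, 13 exons) had 144, 222, 139 and 208 normalized counts in wild type libraries 21, 22, 26 and 27. In the wild type laser libraries 1, 2, 3, 11, 12, 13, 16, 17 and 19 it had 9.05, 36.3, 29.5, 89.6, 12.7, 19.3, 37.9, 62.2 and 20.6. Every laser library lay below every library without laser, which held for 1.75% of all genes tested. The mean was 35.2 ± 25.96 (SD, n = 9) after laser and 178 ± 42.8 (SD, n = 4) without. Its log2 fold change was -2.59 (standard error 0.56), and limma gave a Benjamini-Hochberg adjusted p of 0.00658. An exact permutation test of Th alone, two-sided, gave p = 0.0014, the smallest that 9 against 4 libraries allow.

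In Ceacam1-/- mice, Th had 42.4, 267, 248 and 150 normalized counts in libraries 23, 24, 25 and 28 without laser. In the laser libraries 4, 5, 6, 7, 14, 15 and 18 it had 45.2, 10.5, 62.9, 60.8, 39.4, 49.96 and 86.7. All laser libraries lay below libraries 24, 25 and 28, and library 23 lay among them. The log2 fold change was -1.68 (standard error 0.58), with an adjusted p of 0.102 from limma and p = 0.0273 from a two-sided exact permutation test. Without library 23 it was -2.26 (adjusted p = 0.0147 from limma). The difference of the laser effect between the genotypes, 0.91 (standard error 0.81), did not pass the test (adjusted p = 0.691 from limma). This difference was 0.33 without library 23, and 0.16 when libraries were weighted by their fit (array weights).

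Other lists also differed in the laser comparisons. Of 8 myeloid genes, 7 were called higher after laser in wild type and 5 in Ceacam1-/- libraries (limma, adjusted p of 0.05), among them Cd68 and Tyrobp in both. Over all genes tested, 5.28% and 3.72% were called in either direction. Csf1r, the most abundant of the 8, was not called, with log2 fold changes of 0.89 and -0.28. The summed level of the list was 3236 to 6892 normalized counts in wild type libraries without laser and 13331 to 22370 after laser. None of 9 skeletal muscle genes was called in wild type, where all 9 had lower values after laser (median log2 fold change -0.84), and none in Ceacam1-/- libraries (median -2.06). At an unadjusted p under 0.05 in limma there were 2 and 8 of 9, beside 20.0% of all genes in each genotype. The muscle list, led by Acta1, summed to 310289 to 614218 in wild type libraries without laser and 86472 to 358230 after laser, and in library 23, the low library for Th, to 57348 beside a highest value of 1028787 in its group. Over the 24 libraries Th had rs = 0.57 with the muscle list and rs = -0.77 with the myeloid list, both pairs added after the values were seen (adjusted permutation p = 0.0159 and 0.00264). Within the 9 wild type laser libraries rs was 0.22 and -0.83 (exact permutation p = 0.581 and 0.00827). Of the 8 genes in a list of sympathetic and other autonomic neurons, led by Slc18a2, Hand2 was at 0 in all libraries, 6 were tested and none was called with laser in either genotype. In limma 0 and 2 of the 6 had an unadjusted p under 0.05, beside 20.0% of all genes. The median log2 fold change of the 6 was -0.25 in wild type and -1.01 in Ceacam1-/- mice, where 5 of 6 were negative. Dbh, which makes noradrenaline from dopamine, was lowest there with -2.20 (standard error 0.99, adjusted p = 0.215) and had -0.092 (0.95) in wild type mice. Th had rs = 0.01 with the autonomic list over 24 libraries (adjusted permutation p = 0.969) and rs = -0.80 within the wild type laser libraries (exact permutation p = 0.0138). All 7 genes of a lens list, led by Cryaa, had positive values in wild type (median 2.32) and 5 of 7 in Ceacam1-/- mice (median 2.53), and all 8 surface epithelium genes had negative values in both (medians -1.27 and -2.68), with none called or at an unadjusted p under 0.05 in limma. What part any of these tissues had in the Th values was not tested.

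**Figure D3:**
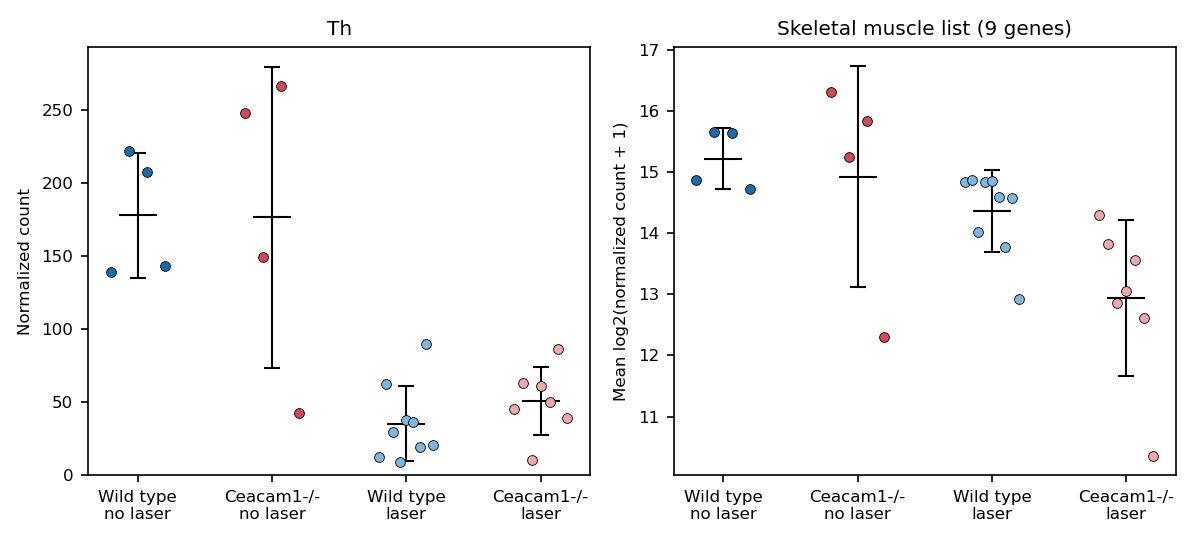
Normalized counts of Th (left) and the mean log2(normalized count + 1) of 9 skeletal muscle genes (right) in the 4 groups, 1 point per library, with mean and SD. The 9 wild type laser libraries lie below all 4 wild type libraries without laser for Th, and library 23 is the lowest point of the Ceacam1-/- group without laser in both panels.

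The other 32 inner retinal genes tested did not pass the threshold in wild type mice. Their values were mostly lower after laser, since 2 of the 33 genes had a positive log2 fold change (42.1% of all genes did) and 31 a negative one, with a median of -1.26 beside -0.10 over all genes. That median was -0.60 without library 21 and -1.89 without library 26. All 18 photoreceptor genes had negative values as well (limma, median -1.46, none called or at an unadjusted p under 0.05), and their part in the result was not tested. For Calb1, Nefl and Pou4f2 the differences were not large beside their errors. Calb1 had a log2 fold change of -2.34 with a standard error of 1.49 (adjusted p = 0.386 from limma), Nefl -1.34 with 1.11 (adjusted p = 0.513) and Pou4f2 -1.25 with 1.14 (adjusted p = 0.551). Without library 21 these were -1.57, -0.60 and -0.79. Trpm1 (-0.16, standard error 0.29) and Slc6a9 (-0.16, standard error 0.36) differed by less than their error. With a library left out, Slc6a9 ran from -0.52 (without library 22) to -0.03 (without library 21). Thy1 was among the 2 genes with a positive value (0.87, standard error 0.38, adjusted p = 0.193 from limma). In all, 4 of the 33 genes, Th among them, had an unadjusted p under 0.05 in limma, beside 20.0% of all genes. Prkca, named here because it was called when only wild type libraries entered the fit, had 1044 ± 270 (SD, n = 9) after laser and 2071 ± 618 (SD, n = 4) without, with a log2 fold change of -0.98 and an adjusted p of 0.162 from limma. A two-sided exact permutation test of Prkca alone gave p = 0.0028, and 8 of the 9 laser libraries lay below all 4 without laser.

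In Ceacam1-/- mice the values went the other way. Of the 33 genes, 26 had a positive log2 fold change after laser (51.2% of all genes did), with a median of 1.101 beside 0.02 over all genes, and none passed the threshold (3 at an unadjusted p under 0.05, beside 20.0% of all genes), beside 3.72% of all genes called in limma. Calb1 had a log2 fold change of 1.88 (standard error 1.55), Nefl 1.71 (1.16), Pou4f2 2.76 (1.19) and Thy1 0.83 (0.39). With single libraries left out Calb1 ran from 1.02 (without library 24) to 3.29 and Nefl from 0.90 (without library 25) to 2.93, both highest without library 23. Without libraries 14, 15 and 18, which were left out together because they were high and so lower the value by choice, the median was 0.05 and 18 of 33 values were positive. With single libraries left out the median ran from 0.52 (without library 25) to 2.05 (without library 23). All 18 photoreceptor genes also had positive values (median 2.15, none at an unadjusted p under 0.05), and all 8 genes of the retinal pigment epithelium had negative ones (median -1.61, 6 of 8), with none called in limma. The part of these lists in the result was not tested. The interaction of laser and genotype called none of the 33 genes (3 at an unadjusted p under 0.05, beside 6.22% of all genes) and 0.0% of all genes in limma. Of the 33 values, 30 were positive (50.5% of all genes), with a median of 2.24, which ran from 1.58 (without library 21) to 3.48 (without library 26). Without libraries 14, 15 and 18 the median was 0.66 and 28 of the 33 values were positive. All 18 photoreceptor genes were positive in the interaction as well (median 3.66, 3 at an unadjusted p under 0.05). All 8 genes of the retinal pigment epithelium were negative (median -1.49, 3 of 8), with none called in limma, and the part of these lists was not tested. Pou4f2 had the lowest p in the interaction, with a difference of 4.004 on the log2 scale (standard error 1.65, adjusted p = 0.640 from limma). The laser comparisons share all their libraries with the comparisons of genotypes below, so the 2 kinds are not independent.

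Without laser, the comparison of Ceacam1-/- with wild type mice asks whether loss of Ceacam1 alone changes the tissue. None of the 33 genes passed the threshold and none had an unadjusted p under 0.05, beside 0.0% and 1.53% of the 20057 genes tested in limma. The median log2 fold change was -0.45 beside -0.02 over all genes, and 5 of the 33 values were positive (47.9% of all genes) and 28 negative. The median was -0.14 without library 21, -1.57 without library 26 and -2.18 with array weights. All 18 photoreceptor genes had negative values (median -1.62) and 6 of 8 surface epithelium genes positive ones (median 1.97), none of them called or at an unadjusted p under 0.05 in limma, and their part in the result was not tested. Thy1 had the lowest p, with 440 ± 153 normalized counts in Ceacam1-/- and 304 ± 61.1 in wild type libraries (SD, n = 4 each). The difference was 0.49 on the log2 scale (standard error 0.28, adjusted p = 0.999 from limma). For Thy1 it was 0.28 without library 28 and 0.18 with array weights. Th had 177 ± 103 and 178 ± 42.8 (SD, n = 4 each), and its log2 fold change of -0.28 was smaller than its error of 0.56. Gad2 had the most negative log2 fold change, -2.12, with a standard error of 2.08, so its difference was about as large as its error.

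After laser, the inner retinal genes had higher values in Ceacam1-/- than in wild type libraries, but none passed the threshold, beside 0.0202% of the 19757 genes tested in limma (4 genes, and 25 without library 17 or 61 without library 19). Of the 33 genes, 31 had a positive log2 fold change (51.2% of all genes did), with a median of 1.64 beside 0.01 over all genes, and 16 had an unadjusted p under 0.05 (48.5%), beside 22.7% of all genes. Calb1 had the lowest p, with 812 ± 918 (SD, n = 7) against 103 ± 103 (SD, n = 9) normalized counts. This was a log2 difference of 3.14 (standard error 1.22, adjusted p = 0.171 from limma, two-sided exact permutation p = 0.0358). Nefl had 4539 ± 5030 (SD, n = 7) against 1141 ± 1013 (SD, n = 9), a log2 fold change of 1.69 (standard error 0.85, adjusted p = 0.238). For both genes 3 of the 7 Ceacam1-/- libraries, 14, 15 and 18, lay above all wild type laser libraries. Without these 3 libraries, chosen for their high levels, the median was 0.24, and 9 of the 31 genes still tested had negative values. At an unadjusted p under 0.05 there were then 0 of the 31 in limma. Other lists differed as well, with none of their genes called in limma. All 18 photoreceptor genes had higher values in Ceacam1-/- laser libraries (median log2 fold change 2.02, 11 at an unadjusted p under 0.05). Values were lower for all 8 genes of the retinal pigment epithelium (median -1.47, 7 of 8), all 9 skeletal muscle genes (-1.36, 9 of 9), all 8 pigment cell genes (-1.05, 1 of 8) and all 8 endothelial genes (-0.54, 2 of 8). Libraries 14, 15 and 18 had the lowest summed level of all 24 libraries in the pigment epithelium list (39700 to 68895) and in the pigment cell list (10083 to 28739). The part of these lists in the result was not tested.

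Each comparison was also fitted with the photoreceptor level of the library as a covariate. Over the 24 libraries, 28 of the 33 genes were positively correlated with that level. A shift of their fold changes towards 0 was therefore largely built into the fit, and its cause was not tested. The median log2 fold change of the 33 genes moved from -1.26 to -0.11 for laser in wild type mice, from 1.101 to -0.20 for laser in Ceacam1-/- mice, from -0.45 to 0.23 for genotype without laser and from 1.64 to 0.19 for genotype after laser. The interaction moved most, from a median of 2.24 with 30 of 33 values positive to -0.29 with 12 positive. For genotype after laser Nefl had -0.093 (standard error 0.31, and 0.85 without the covariate) and Calb1 0.67 (0.58, and 1.22 without). In that comparison 1 of the 33 genes had an unadjusted p under 0.05 in limma with the covariate and 16 without. For laser these counts were 6 and 4 in wild type and 4 and 3 in Ceacam1-/- mice, and for the interaction 0 and 3. Th in wild type mice was -2.63 (standard error 0.58, adjusted p = 0.00691 from limma), as large as without the covariate and with a similar error. It remained the only one of the 33 genes called in any of the 5 comparisons with the covariate.

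**Figure D4:**
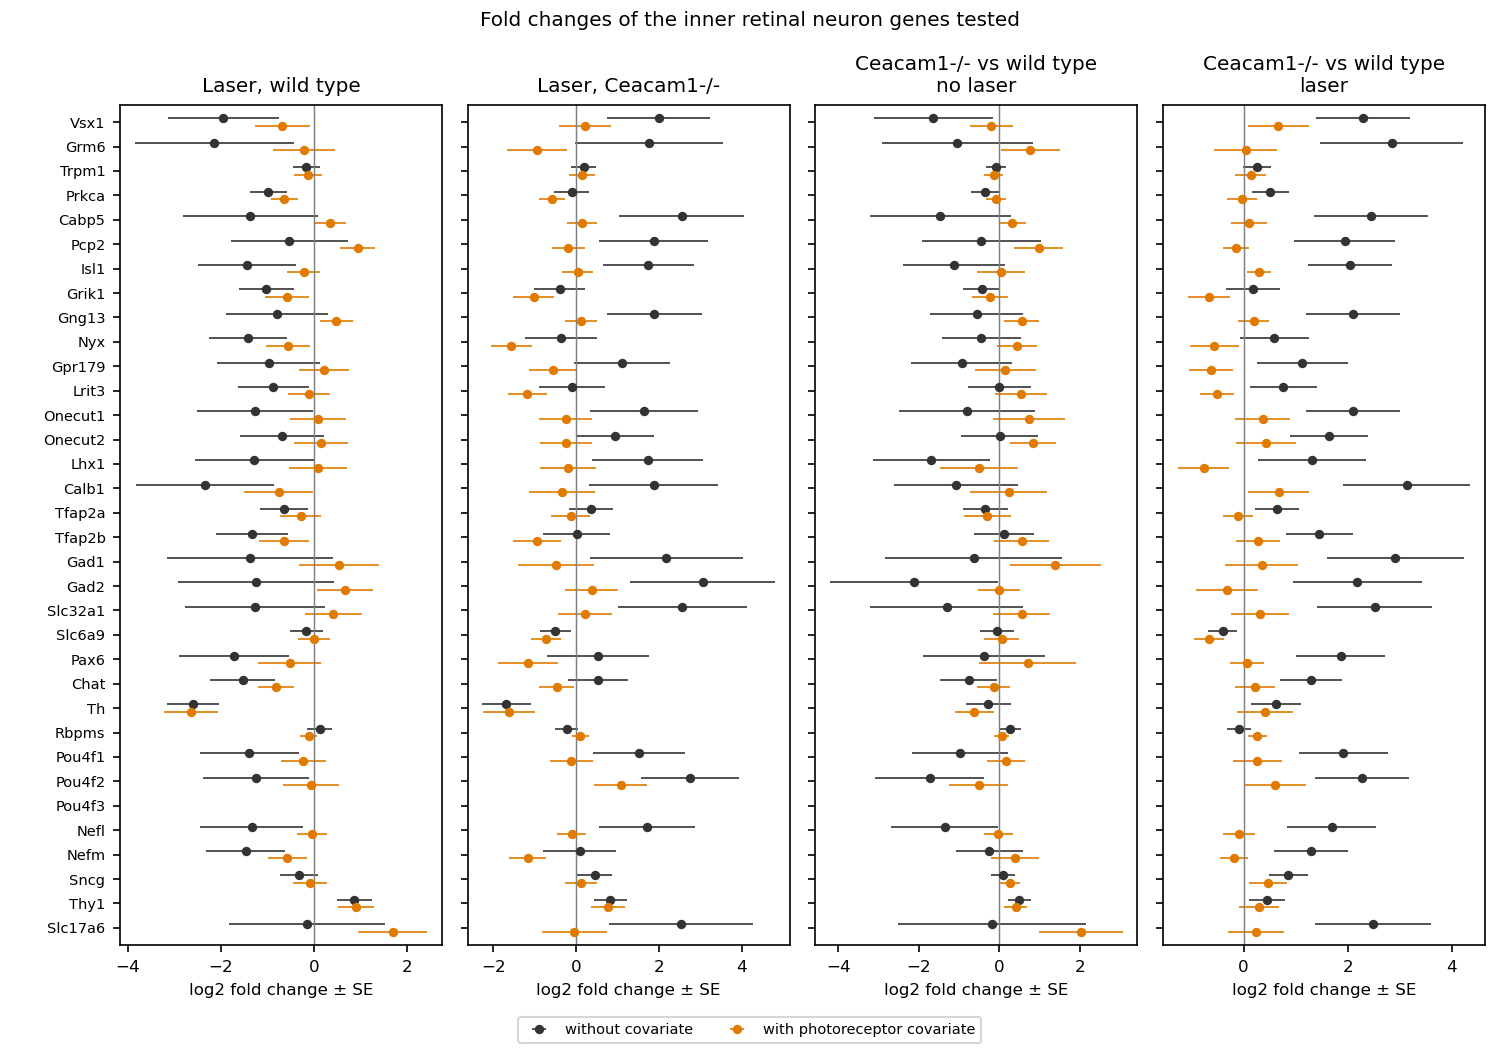
Log2 fold changes with standard errors of the 33 genes tested in 4 comparisons, without (black) and with (orange) the photoreceptor level as a covariate. With the covariate most values move towards 0 and most errors are smaller, while Th in the laser comparisons keeps its place.

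A wider list of 54 other inner retinal genes was examined in the same fits, and 51 of them were tested in the laser comparisons and 49 without laser. In wild type mice 1 of 51 was called lower after laser and none higher, beside 5.28% of all genes called. It was Rgs11, a regulator of the Grm6 G protein pathway, with a log2 fold change of -0.95 (standard error 0.27, adjusted p = 0.0439 from limma). In Ceacam1-/- mice 1 of 51 was called higher and none lower, beside 3.72% of all genes called. It was Samsn1, an adaptor protein that immune cells also express, with 2.24 (standard error 0.57, adjusted p = 0.0307). Both were named because they passed the threshold. None was called between the genotypes, with 0 of 49 at an unadjusted p under 0.05 without laser (1.53% of all genes) and 18 of 51, or 35.3%, after laser (22.7% of all genes) in limma. The median log2 fold change of the wider list was -0.76 for laser in wild type, 1.05 for laser in Ceacam1-/-, -0.57 for genotype without laser and 1.31 for genotype after laser, the same signs as for the 34 genes.

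A list of 7 genes of Müller glia, the supporting cells of the retina, was called in no comparison in limma. At an unadjusted p under 0.05 there were 0 of 7 in the laser comparisons (20.0% of all genes) and 0 of 7 between genotypes without laser (1.53%). Between genotypes after laser there were 2 of 7, beside 22.7% of all genes. The most abundant gene of the list was Dkk3. The summed level of the list ranged from 12550 in library 12 to 40792 in library 18, which were also the libraries with the lowest and the highest values of many of the 34 genes.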

How the data were processed

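Choroidal RNA of 24 samples was measured by RNA sequencing of SMART-Seq libraries. The authors estimated reads with Salmon 1.10.3 on GRCm39, imported them with transcript lengths and deposited normalized counts made with DESeq2 1.44.0 (a signal per gene and library). The deposited signal values are not whole reads: at the best step per library, between 34.2% and 75.6% of low values lay within 0.05 of a whole multiple, so no count test was run. Symbols, positions and promoters were taken from GENCODE on GRCm39, which matched 99.1% of identifiers.

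Groups were taken from the sample labels. The study removed an outlier library before its evaluation without naming it. Its group sizes after removal equal those of the libraries without laser here, and none of the 24 libraries was left out. Log2(value + 1) of genes with a mean of at least 10 went into limma (version 3.58.1, R version 4.3.3) using a variance trend. Laser within each genotype and the interaction came from a fit of all 24 libraries (19950 genes), and genotype from the 8 libraries without laser (20057 genes) and the 16 with laser (19757 genes). P-values were adjusted by Benjamini-Hochberg over all genes tested, with a threshold of 0.05. The study's sex covariate is not in the labels and was left out, with the summed Y-linked genes as an alternative. Single genes were also compared by exact permutation tests, and correlations by 100000 permutations (exact within a group). Tested on simulated data for laser in wild type mice, the fit called 73, 165 and 194 of 200 changed genes at log2 changes of 1, 2 and 4, among 19638, 19632 and 19628 genes. At a log2 change of 1 it called 25 of 200 for the interaction (19598 genes) and 0 of 200 for genotype without laser (19623 genes), and at 2 it called 119 (19592 genes) and 112 (19664 genes).

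The members and lists were chosen with earlier results of these data known. Values, fold changes and tests are printed for members past the threshold in any comparison, the member with the highest mean of each cell class and the member of lowest p in each comparison; other members are given by values, ranges, counts and correlations. Prkca and Gad2 are given fold changes outside this rule, and Prkca also an exact permutation p. Both were chosen after their values were seen. Alternatives were pseudocounts of 0.5 and 10, no filter and a mean of at least 50, quantile and upper-quartile normalization, array weights, robust variances or no trend in limma, the Y-linked and photoreceptor covariates, a fit on other sets of libraries, and the omission of single libraries. Other steps ran in Python 3.11.15 (numpy 2.4.6, pandas 2.3.3, scipy 1.17.1), and plots were drawn with matplotlib 3.10.9.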

Additional observations from a re-analysis of the deposited data

Results flagged for a closer look

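Within the 4 groups, 136 sets of values (34 genes in 4 groups) were examined for a library far from the others of its group by Dixon's test, and 7 such values were found. Chance would give about 1 in 20 of independent sets, which is about the number found. These sets share libraries and most of the genes varied together, so the count cannot be judged against chance. Wild type laser library 12 stood apart by low values of the bipolar cell gene Gpr179 (12.5 normalized counts) and of the horizontal cell gene Onecut2 (0). Ceacam1-/- library 23 without laser stood apart by its high Gad1 (2550), wild type library 22 by its low Slc6a9 (1304) and wild type library 26 by its low Pax6 (58.8). Ceacam1-/- laser library 5 stood apart by its low Th (10.5), and wild type laser library 17 by its high Rbpms (3170). Library 12 had the second-lowest photoreceptor level of the 24 libraries and library 23 the third-highest, and the part of these levels in the values was not tested.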

How the results depend on the processing

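Th for laser in wild type mice kept its direction and its call under every alternative (log2 fold change -2.79 to -2.40 with a library left out and -2.63 to -2.22 otherwise). The count of the 33 genes called there was 1 with any library left out, 2 of 32 tested with only the libraries of the genotype (Prkca and Th, beside 2274 of 19529 genes in all) and 11 with array weights, which weigh libraries by their fit (Calb1, Chat, Grik1, Isl1, Nefm, Nyx, Pax6, Prkca, Tfap2b, Th and Vsx1). Array weights called 6505 of 19950 genes, a like share. For laser in Ceacam1-/- mice it was 0 to 2 with a library left out (without Ceacam1-/- library 23, Pou4f2 at 3.98 and Th) and 1 with array weights (Th). It was 0 for the interaction and for genotype under every alternative. Over all genes, the count ranged from 787 to 6505 for laser in wild type mice (479 to 1257 with a library left out) and from 38 to 3551 in Ceacam1-/- mice (148 to 2488), the highest with array weights and, among left-out libraries, without 14 and 23. For genotype after laser it ranged from 2 to 297 (4 to 61), the highest with array weights and without library 19.

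Some fold changes changed sign. With array weights, Trpm1 was 0.17 for laser in wild type mice, Thy1 0.23 in the interaction, and Th 0.073 and Trpm1 0.031 for genotype without laser. With the photoreceptor covariate, Slc6a9 was 0.0011 for laser in wild type mice, Calb1 -0.35 and Nefl -0.10 for laser in Ceacam1-/- mice, Nefl -0.061 in the interaction, Calb1 0.23 and Slc6a9 0.052 for genotype without laser, and Nefl -0.093 for genotype after laser. The cause was not tested. The median r of the 33 genes with the pigment cell list was -0.52 over 24 libraries and 0.52 within the wild type laser libraries, and that with the autonomic list -0.58 and -0.29.
With a library left out, Trpm1 ranged from -0.276 to 0.052 for laser in wild type mice, Slc6a9 from -0.627 to 0.018 and Thy1 from -0.241 to 0.163 in the interaction, and Th from -0.576 to 0.2998, Trpm1 from -0.204 to 0.124 and Slc6a9 from -0.417 to 0.227 for genotype without laser.

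No paired analysis was possible because the labels do not give the mouse or litter behind a library. Estimated reads per library, the time after laser and the sex of the mice are not in the sources used here, and these limit what a difference between groups can show. Without read depths, no counting error is given for genes near 0 in several libraries, such as Pou4f2 and Lhx1.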
